A study of Mus musculus with 6 samples.

Results

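The genes described here were 8 keratins of stratified epithelium and hair, Krt5, Krt14, Krt15, Krt17, Krt6a, Krt10, Krt35 and Krt75. They were taken by name from a table of 23594 genes, and all 8 were in it. The table held 42 of the 54 keratin genes annotated in GENCODE vM21, so 34 other keratins were available for comparison. RNA was sequenced from mouse mandibular first molars at 4.5 days after birth, in 3 control and 3 Lhx6-/- libraries. The tissue was the apical part of the furcation development region, the area below the crown where the roots separate, cut from sections by laser-capture microdissection. Each library combined tissue of 8 molars. The labels give the strain of all 6 libraries as C57BL/6. The controls are wild type in the labels and littermates in the methods of the study. The Lhx6-/- mice carried 2 copies of a knock-in allele, Lhx6-CreER, which abolishes Lhx6 and encodes a tamoxifen-inducible Cre, so the mutants also carried the Cre. The loss was in the whole animal, not in 1 cell type, and the sex make-up of each library was not given in the sources used here.

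Keratins build the intermediate filaments of epithelial cells, and each filament is assembled from pairs of a type I and a type II protein. Basal cells of stratified epithelium make Krt5 with Krt14, and cells that leave the basal layer switch to other pairs such as Krt1 with Krt10. Hair and nail keratins such as Krt35 belong to the hard keratins of the hair shaft, while Krt75 was named for the companion layer of the hair follicle and has been described in enamel as well.

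Lhx6, the targeted gene, was lower in all 3 Lhx6-/- libraries, at 12.8, 9.82 and 10.5 CPM against 27.8, 18.2 and 21.9 CPM in control (adjusted p = 0.0210 in edgeR). CPM are estimated counts per 1000000 after scaling by edgeR's TMM method. Totals ran from 60132323 to 76157433 estimated counts per library. The marker genes of enamel-forming epithelium were abundant in every library, and Amelx, which encodes amelogenin, ranged from 83288 to 109633 CPM. Krt13 and Krt4, keratins of the lining of the mouth, were present as well, at 223 to 548 CPM and 235 to 536 CPM. The libraries were bulk tissue, so which epithelium the keratin RNA came from was not measured. The 4 Y-linked genes Kdm5d, Uty, Ddx3y and Eif2s3y summed to 17.4, 58.0 and 14.6 CPM in control replicates 1, 2 and 3 and to 55.1, 92.1 and 88.5 CPM in Lhx6-/- replicates 1, 2 and 3.

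Keratin genes resemble each other so closely that a 75-base read cannot always be placed. The type I members Krt10, Krt35, Krt15, Krt14 and Krt17 lie on mouse chromosome 11 of mm10 between 99385254 and 100261029. The type II members Krt75, Krt6a and Krt5 lie on chromosome 15 between 101563345 and 101712898. All 8 are on the minus strand. The following 30 coding bases, from GENCODE vM21, encode the conserved end of the central rod, the part of the protein that pairs with its partner. They are shown to let the members be compared at 1 site. Capitals mark letters that differ from Krt14 in the type I genes and from Krt5 in the type II genes.
Krt14: acctaccgccgtctgctggagggagaggac
Krt17: acctaccgccgtctgctggagggagaggaT
Krt10: acctaccgcAgCctgctAgaAggagaggGA
Krt35: acGtacAgGGgCctgctggagAgCgaggac
Krt15: acTtaccgGAACctgctCgagggCCaggaT
Krt5: acctacaggaagctgctggagggcgaggag
Krt75: acctacaggaagctgctggaAggcgaggag
Krt6a: acctacaggaagctgctggaAggAgaggag
At this site Krt17 differed from Krt14 at 1 base, Krt10 at 6, Krt35 at 7 and Krt15 at 9. Krt75 differed from Krt5 at 1 base and Krt6a at 2. Over the aligned coding sequence Krt14 was 84.7% identical to Krt17, 72.5% to Krt15, 67.5% to Krt10 and 66.1% to Krt35. Krt5 was 80.1% identical to Krt6a and 77.5% to Krt75.

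Longer runs of identical letters bear on how the reads were counted. Of all 75-base windows of the annotated transcript, 56.0% of those of Krt6a also occur in another gene, mostly Krt6b. The share was 7.77% for Krt5, 5.91% for Krt14, 1.76% for Krt35, 1.72% for Krt75 and 0.99% for Krt10. It was 0 for Krt15 and for Krt17. The counts of Krt6a are therefore uncertain, while Krt6b stood at 0.386 to 2.69 CPM against 9.002 to 96.1 CPM for Krt6a. In the following coding stretches the capitals mark the longest run that a member shares letter for letter with the other gene named, and the 10 bases on each side are those of the member.
Krt6a with Krt6b: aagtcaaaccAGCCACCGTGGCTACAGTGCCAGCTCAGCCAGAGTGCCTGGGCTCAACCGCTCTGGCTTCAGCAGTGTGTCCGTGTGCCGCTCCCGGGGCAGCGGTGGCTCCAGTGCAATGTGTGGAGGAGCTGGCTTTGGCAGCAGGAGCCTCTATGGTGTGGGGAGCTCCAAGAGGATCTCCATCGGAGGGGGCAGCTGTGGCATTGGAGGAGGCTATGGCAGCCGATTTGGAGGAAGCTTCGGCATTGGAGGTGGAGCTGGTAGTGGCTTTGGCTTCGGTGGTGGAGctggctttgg
Krt14 with Krt16: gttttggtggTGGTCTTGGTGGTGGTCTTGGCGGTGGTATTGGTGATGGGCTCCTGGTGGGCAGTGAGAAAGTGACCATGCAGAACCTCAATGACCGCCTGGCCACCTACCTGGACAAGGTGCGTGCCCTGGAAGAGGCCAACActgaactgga
Krt35 with Krt34: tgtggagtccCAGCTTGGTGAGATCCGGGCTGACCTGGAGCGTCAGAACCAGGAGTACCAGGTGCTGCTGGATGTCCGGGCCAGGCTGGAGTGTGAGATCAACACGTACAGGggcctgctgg
The shared runs were 280 bases long for Krt6a with Krt6b (coding positions 34 to 313 of both), 134 for Krt14 with Krt16 (306 to 439 of Krt14) and 102 for Krt35 with Krt34 (1093 to 1194 of Krt35). Krt17 and Krt14 shared 71 bases, fewer than a whole read. Krt34, a hair keratin, was too low to test, at 0 to 0.404 CPM.

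All 8 keratins had a lower mean in the Lhx6-/- libraries, and 5 of them met the rule for a lower gene. The rule, from edgeR's quasi-likelihood test, asked for a p under 0.05 before adjustment and a change of 1.5-fold or more. The 5 were Krt5, Krt14, Krt17, Krt35 and Krt75. Among the 20114 genes tested, 1.71% met this rule as lower and 1.58% as higher, and none of the 8 keratins met it as higher. After Benjamini-Hochberg adjustment over all tested genes 1 of the 8, Krt35, had an adjusted p under 0.05. At that level 0.0795% of tested genes were lower and 0.323% higher. Krt35 passed the filter on low counts only through its control libraries, where it is high, so this count is a description and nothing is read from it. In 6 of the 8 the 3 Lhx6-/- libraries lay wholly below the 3 control libraries, against 7.68% of all tested genes, with 7.86% wholly above and none of the 8 keratins among those. Krt35 is also among the 5 that met the rule and among these 6, so these counts are descriptions too. The median log2 fold change of the 8 was -0.93, while that of all tested genes was -0.0019. The shift was not particular to the 8. The 25 other keratins tested had a median of -0.75. The 19 of them that are not keratins of simple, single-layered epithelium had a median of -0.93, with 17 negative. In bulk tissue, fewer cells that make a keratin and less of its RNA per cell cannot be told apart.

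**Figure D1:**
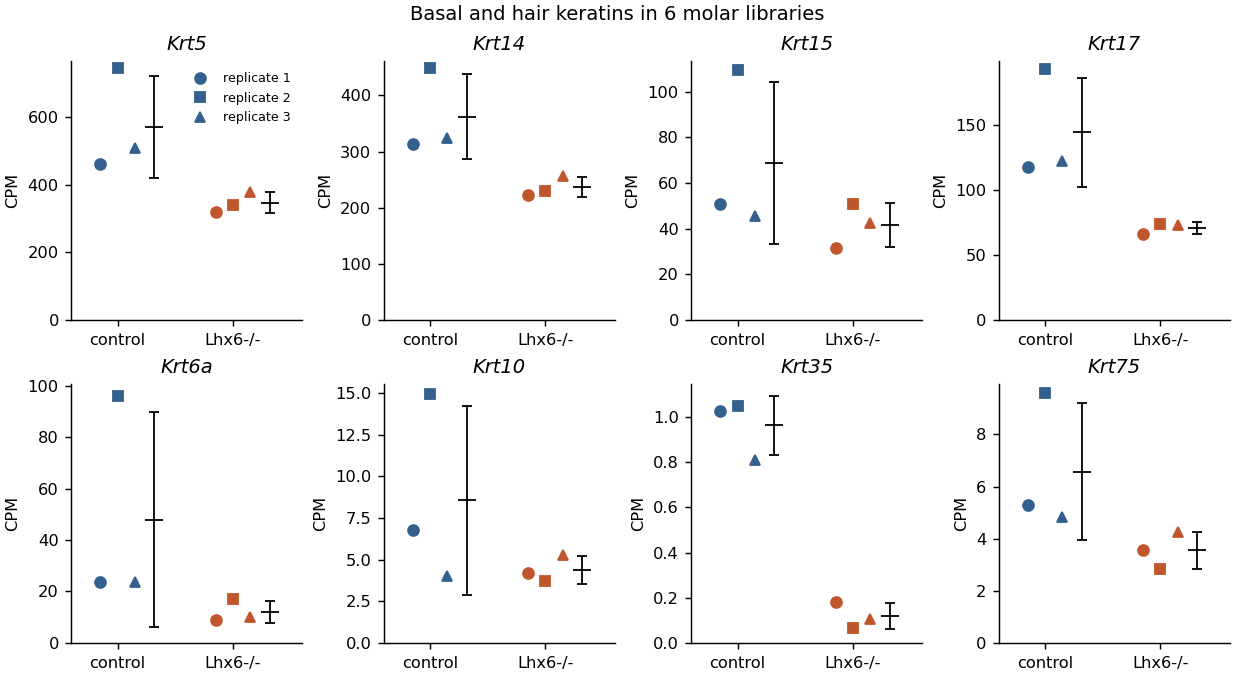
Level of each keratin in CPM (vertical axis, linear and starting at 0) in the 3 control and 3 Lhx6-/- libraries; symbols give the replicate number, and the bar beside each group gives the mean ± SD of 3 libraries. Control replicate 2 is the highest library for all 8 genes, and the groups overlap for Krt15 and Krt10 only.

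Krt5, the type II keratin of basal cells, stood at 460, 744 and 508 CPM in control replicates 1, 2 and 3 and at 319, 340 and 380 CPM in Lhx6-/- replicates 1, 2 and 3. The highest Lhx6-/- library was below the lowest control library. The mean was 571 ± 152 CPM in control and 346 ± 30.8 CPM in Lhx6-/- tissue (SD, n = 3 each), or -0.72 ± 0.17 (standard error, SE) as a log2 fold change (adjusted p = 0.214 in edgeR). Krt14, its type I partner, stood at 313, 450 and 325 CPM in control and at 223, 230 and 257 CPM in Lhx6-/- libraries. The groups did not overlap here either. The mean was 362 ± 75.8 against 237 ± 17.7 CPM (SD, n = 3 each), or -0.62 ± 0.13 (SE) as a log2 fold change (adjusted p = 0.116 in edgeR).

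The pair moved in step from library to library. The log2 ratio of Krt5 to Krt14 counts within a library was 0.56, 0.73 and 0.65 in control and 0.52, 0.56 and 0.56 in Lhx6-/- replicates. These ranges overlapped, and the means, 0.64 ± 0.08 and 0.55 ± 0.03 (SD, n = 3 each), differed by -0.10 (p = 0.3, exact two-sided permutation test, whose smallest possible p is 0.1).

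Krt15, a type I keratin of basal cells that is also made by stem cells of the hair follicle bulge, did not separate the genotypes. It stood at 50.9, 109 and 45.4 CPM in control and at 31.4, 50.9 and 42.5 CPM in Lhx6-/- replicates. Lhx6-/- replicate 2 was level with control replicate 1, and control replicate 2 lay far above the other 5 libraries. The log2 fold change was -0.72 ± 0.44 (SE; adjusted p = 0.715 in edgeR), the size of that of Krt5 with a larger error.

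Krt17 and Krt6a are keratins of skin appendages that are also induced in wounded or rapidly growing epithelium. Krt17 stood at 118, 193 and 122.9 CPM in control and at 66.0, 74.1 and 73.1 CPM in Lhx6-/- replicates. The lowest control value was well above the highest Lhx6-/- value, and the 3 Lhx6-/- libraries were close together. The mean was 145 ± 42.2 against 71.1 ± 4.42 CPM (SD, n = 3 each), or -1.03 ± 0.20 (SE) as a log2 fold change (adjusted p = 0.154 in edgeR). Krt6a stood at 23.8, 96.1 and 23.6 CPM in control and at 9.002, 16.9 and 10.04 CPM in Lhx6-/- replicates. The groups did not overlap, but control replicate 2 was several times higher than the other control libraries. The log2 fold change of -1.99 had an SE of 0.77 and did not meet the rule (adjusted p = 0.535 from edgeR).

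Krt10, a type I keratin of cells that have left the basal layer, stood at 6.75, 14.9 and 4.02 CPM in control and at 4.17, 3.69 and 5.29 CPM in Lhx6-/- replicates. Control replicate 3 was below 2 of the 3 Lhx6-/- libraries. The log2 fold change was -0.97 ± 0.48 (SE; adjusted p = 0.612 in edgeR). Krt1, the usual type II partner of Krt10 and one of the other 34 keratins, stood at 2.01, 41.9 and 4.23 CPM in control and at 2.98, 0.900 and 0.752 CPM in Lhx6-/- replicates. It too was far higher in control replicate 2 than in any other library.

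Krt35, a type I keratin of the hair cortex and matrix, showed the largest fold change of the 8 at the lowest level. It was read with 64, 70 and 48 estimated counts in control replicates and with 11, 5 and 8 in Lhx6-/- replicates, or 1.03, 1.05 and 0.812 CPM against 0.180, 0.0671 and 0.108 CPM. Every control library was several times above every Lhx6-/- library, and control replicate 2 did not stand out. The mean was 0.962 ± 0.131 CPM in control and 0.118 ± 0.0572 CPM in Lhx6-/- tissue (SD, n = 3 each), and the fitted Lhx6-/- level was 12.3% of that in control. The log2 fold change was -3.02 ± 0.55 (SE; adjusted p = 0.0405 in edgeR). The filter that the gene passed through its control libraries lay near 0.155 CPM, and 1 of the 3 Lhx6-/- libraries reached it. Of 17 alternative fits, 7 gave an adjusted p under 0.05 and 10 did not, with a range of 0.000173 to 0.366. Leaving out any 1 of the 6 libraries gave an adjusted p above 0.05 and a log2 fold change between -3.43 and -2.74.

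Krt75, the type II keratin of the hair companion layer, stood at 5.30, 9.59 and 4.84 CPM in control and at 3.55, 2.85 and 4.26 CPM in Lhx6-/- replicates. The gap between the groups was small, since the highest Lhx6-/- value was close to the lowest control value. The mean was 6.58 ± 2.62 against 3.55 ± 0.706 CPM (SD, n = 3 each), or -0.89 ± 0.27 (SE) as a log2 fold change (adjusted p = 0.264 in edgeR).

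The log2 ratio of Krt35 to Krt14 counts, which does not depend on how libraries are scaled, was -8.24, -8.74 and -8.63 in control and -10.21, -11.60 and -11.13 in Lhx6-/- replicates. The 2 groups did not overlap, and Krt35 was lower against Krt14 in every Lhx6-/- library. The means were -8.53 ± 0.26 and -10.98 ± 0.71 (SD, n = 3 each), a difference of -2.45, with the smallest p that 3 against 3 libraries allow (p = 0.1, exact two-sided permutation test). It rests on the same 5 to 11 counts per Lhx6-/- library and the same filtered gene, and is no separate evidence beside the fold change.

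**Figure D2:**
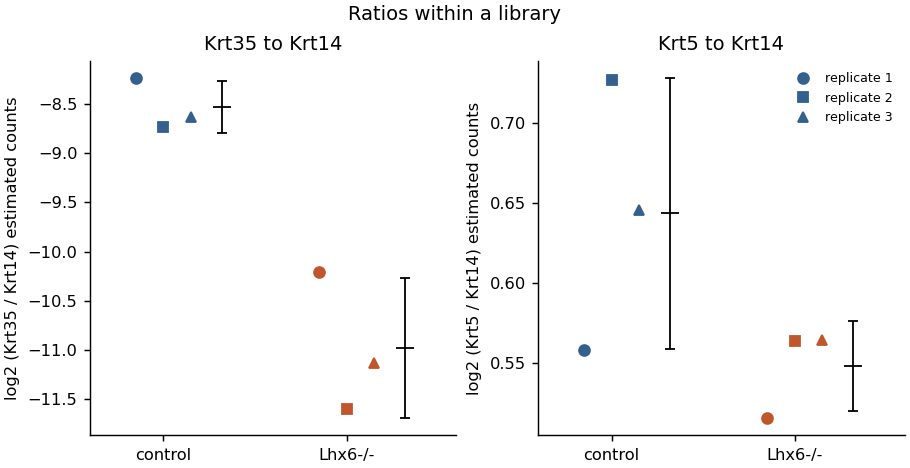
Log2 ratio of estimated counts of Krt35 to Krt14 (left) and of Krt5 to Krt14 (right) in each library; bars give the mean ± SD of 3 libraries, and the vertical axes differ in scale and do not start at 0. The Krt35 ratio is separated by genotype, with a difference of -2.45, while the Krt5 ratios overlap.

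Levels were compared between genes per kilobase of annotated exon. In control libraries the mean level was 259.8 CPM per kilobase for Krt5, 206 for Krt14, 93.3 for Krt17, 38.8 for Krt15, 19.8 for Krt6a, 4.05 for Krt10, 2.01 for Krt75 and 0.402 for Krt35. In Lhx6-/- libraries it was 158, 135, 45.8, 23.5, 4.96, 2.08, 1.09 and 0.0493 CPM per kilobase in the same order. Each of the 6 libraries kept this order for every pair of neighbours. Between libraries the ranges of Krt5 and Krt14 overlapped in both genotypes, as did those of Krt15 with Krt6a and of Krt10 with Krt75 in control. The other neighbours did not overlap. The 8 keratins together held 47.1% to 59.6% of the CPM of all 42 keratins in a library.

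Control replicate 2 was the highest library for all 8 keratins, as it was for 21.99% of all tested genes, and for 11 of the 25 other keratins tested. The 8 summed to 978, 1618 and 1035 CPM in control and to 656, 718.5 and 772 CPM in Lhx6-/- replicates. Without control replicate 2, 3 of the 8 met the rule as lower (Krt17, Krt6a and Krt35) beside 1.49% of the 20928 genes tested. The log2 fold changes were then -0.48 for Krt5, -0.43 for Krt14, -0.21 for Krt15, -0.76 for Krt17, -0.98 for Krt6a, -0.29 for Krt10, -2.95 for Krt35 and -0.51 for Krt75. Krt17 was the member with an adjusted p under 0.05 in this fit (0.00170, edgeR), and Krt35 had an adjusted p of 0.124 from edgeR. Within the remaining 5 libraries the genotypes of the same 6 keratins did not overlap, against 12.7% of all tested genes that were wholly lower. Krt35, which passed the filter of the main fit only through its control libraries, is in both counts, the 3 and the 6. They are descriptions, and nothing is read from them.

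General epithelial genes were set beside the keratins. All 14 genes of a list that holds no keratin, among them Epcam, Cdh1, Cdh3, Esrp1 and Trp63, had a negative log2 fold change, with a median of -0.39 and -0.07 for Epcam. Of these, 4 lay wholly lower in the Lhx6-/- libraries, against 7.68% of all tested genes. None of the 14 passed adjustment at 0.05 in edgeR. The rule was met as lower by 3 of the 14, against 1.71% of all tested genes. Rab25 (-0.59), which encodes an epithelial membrane traffic protein, was among the 3. The list summed to 286, 414 and 324 CPM in control and to 236, 274 and 286 CPM in Lhx6-/- replicates, so the highest Lhx6-/- sum reached the lowest control sum, and none of its genes was at 0. The 7 enamel genes summed to 135600, 138200 and 145300 CPM in control and to 128400, 115000 and 146300 CPM in Lhx6-/- replicates, so they overlapped. Amelx was the most abundant of them, with a log2 fold change of -0.12 (SE 0.11), and none of the 7 met the rule.

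Set against the general epithelial sum of the same library, Krt17 amounted to 41.2%, 46.7% and 38.0% in control and to 27.9%, 27.1% and 25.6% in Lhx6-/- replicates. Krt14 amounted to 109%, 108.5% and 100.4% against 94.4%, 84.0% and 89.7%. Krt5 amounted to 161%, 180% and 157% against 135%, 124% and 133%. Krt35 amounted to 0.359%, 0.253% and 0.251% against 0.0762%, 0.0245% and 0.0376%. For these 4 and for Krt6a the genotypes did not overlap on this scale, while for Krt15, Krt10 and Krt75 they did. Of all tested genes, 0.91% were wholly lower on this scale, against 7.68% in CPM. The general epithelial sum was itself lower on average in the Lhx6-/- libraries, so dividing by it lifts every gene there relative to control. That lowers the share, so nothing is read from the 5 keratins beside it.

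A further fit had the general epithelial level as a covariate, taken as the mean log2 CPM of the listed genes and not their sum. In it 1 of the 8 keratins met the rule, beside 1.24% of all tested genes that were lower. That gene was Krt35, at -3.20 ± 0.81 (SE) as a log2 fold change (adjusted p = 0.366 in edgeR). It passed the filter on low counts only through its control libraries, so nothing is read from this call. Krt17 stood at -0.48 (SE 0.12, adjusted p = 0.374 in edgeR), under 1.5-fold. Krt5 stood at -0.21, Krt14 at -0.24, Krt6a at -0.23, Krt10 at -0.09, Krt75 at -0.30 and Krt15 at 0.21, the only one of the 8 whose sign turned. All 14 genes behind this covariate, Trp63 among them, had a negative log2 fold change. The part of the epithelial level and that of genotype therefore cannot be cleanly told apart in 6 libraries. In this fit 0.0249% of all tested genes had an edgeR adjusted p under 0.05. Nothing is read from the smaller fold changes. With the Y-linked level as a covariate all 8 met the rule as lower, as did 2.81% of all tested genes. In this fit the edgeR adjusted p was under 0.05 for 7 of the 8 and for 1.85% of all tested genes, 1.09% as lower. For Krt35 it was 0.0645. Lhx6 itself stood at -0.58 in this fit (adjusted p = 0.108 in edgeR). The Y-linked level was higher on average in Lhx6-/- libraries and, among controls, highest in control replicate 2. Its part and that of genotype therefore cannot be cleanly told apart in 6 libraries, and nothing is read from the larger counts.

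**Figure D3:**
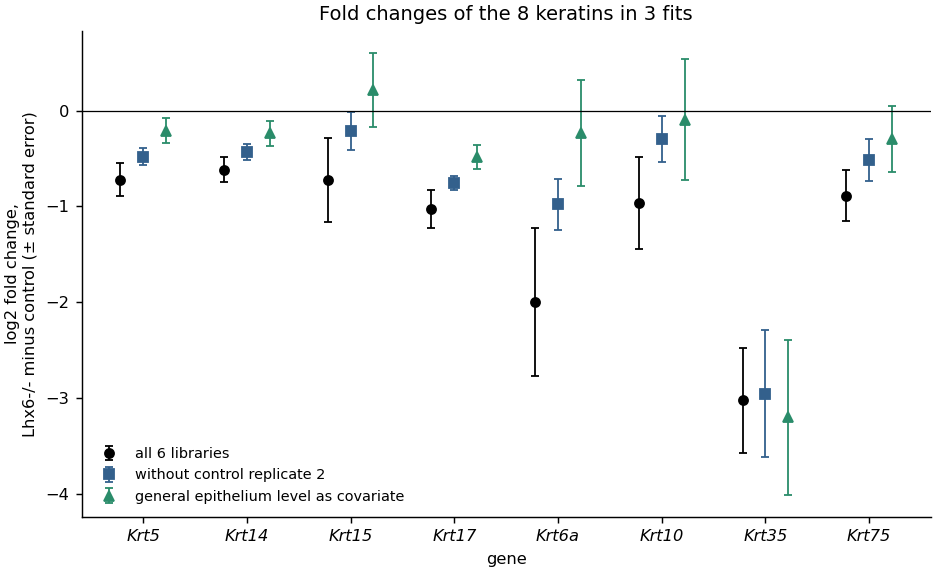
Log2 fold change (Lhx6-/- minus control) of each keratin with its standard error, from all 6 libraries, from 5 libraries without control replicate 2, and with the mean log2 CPM of 14 general epithelial genes as a covariate. Krt35 stays near -3 in all 3 fits, while the other 7 move toward 0 or, for Krt15, past it. The epithelial covariate and genotype cannot be cleanly told apart in 6 libraries, so nothing is read from this move. Krt35 rests on 5 to 11 counts per Lhx6-/- library and passed the filter on low counts only through its control libraries. Its adjusted p in edgeR was 0.0405, 0.124 and 0.366 in the 3 fits, and nothing is read from its position.

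The other keratins of the table are the nearest genes to set beside these 8. Of the 34, 25 could be tested. Of those 25, 8 met the rule as lower and 3 as higher, against 1.71% and 1.58% of all tested genes. Of the 25, 21 had a negative log2 fold change. Krt9, Krt71 and Krt82 are in these counts but passed the filter on low counts only through the genotype where they are high. The counts are therefore a description. The lower ones included Krt13 (-0.93, SE 0.22) and Krt4 (-0.73, SE 0.23), the pair of the lining of the mouth and the most abundant of the other keratins. Krt16 (-4.42), a partner of Krt6a in wounded and palmar skin, Krt6b (-1.47), the close copy of Krt6a, and Krt9 (-3.95), a keratin of palms and soles, were lower too. Krt16 stood at 0.980, 10.9 and 2.81 CPM in control and at 0.0164, 0.416 and 0.228 CPM in Lhx6-/- replicates, Krt6b at 0.386, 2.69 and 0.845 against 0.557, 0.389 and 0.470, and Krt9 at 0.337, 2.27 and 0.271 against 0.0164, 0.0671 and 0.0941. For Krt6b the genotypes overlapped, since control replicate 1 was below every Lhx6-/- library, and Krt6b did not meet the rule without control replicate 2. The remaining lower ones were Krt23 (-1.07), Krt24 (-1.92) and Krt71 (-2.66), the last a keratin of the inner root sheath of hair. Of 7 keratins listed as markers of oral mucosa and skin, 6 were in the table. Of these, 4 (Krt13, Krt4, Krt16 and Krt6b) met the rule as lower, against 1.71% of all tested genes. The list summed to 616, 1038 and 1092 CPM in control and 462, 579 and 471 CPM in Lhx6-/- replicates. None of these lower keratins had an adjusted p under 0.05. Reads of Krt6b and Krt16 are uncertain too, since 39.6% and 28.9% of their 75-base windows occur in another gene.

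Of 6 keratins of simple, single-layered epithelium, 2 met the rule as higher and 1, Krt23, as lower. The shares of all tested genes were 1.58% and 1.71%. Among the 6, 4 had a negative log2 fold change and 2 a positive one, with a median of -0.66. Krt18, a type I simple keratin, stood at 3.37, 2.80 and 4.02 CPM in control and at 12.3, 10.9 and 9.73 CPM in Lhx6-/- replicates. All 3 Lhx6-/- libraries were above all 3 controls, at 1.69 ± 0.17 (SE) as a log2 fold change (adjusted p = 0.00198 in edgeR). Krt8, its type II partner, was higher as well (0.85, SE 0.24, adjusted p = 0.228 from edgeR), although 23.5% of its 75-base windows also occur in other genes, mostly a Krt8 pseudogene. Krt82, a hair cuticle keratin, was higher from a very low level (2.08, SE 0.80; 0.0321, 0.0599 and 0.135 CPM in control against 0.229, 0.349 and 0.390 CPM). Krt82 passed the filter on low counts only through its Lhx6-/- libraries, and Krt71 and Krt9 only through their control libraries, so these 3 could be tested only because they differed. Krt7 (-0.57) and Krt80 (-0.11), which were above 10 CPM on average, did not meet the rule. Without control replicate 2, 5 of the other keratins met the rule (Krt13, Krt16, Krt23, Krt18 and Krt8), beside 714 of 20928 genes. With the epithelial covariate 2 did, Krt18 and Krt8, beside 571 of 20114 genes.

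**Figure D4:**
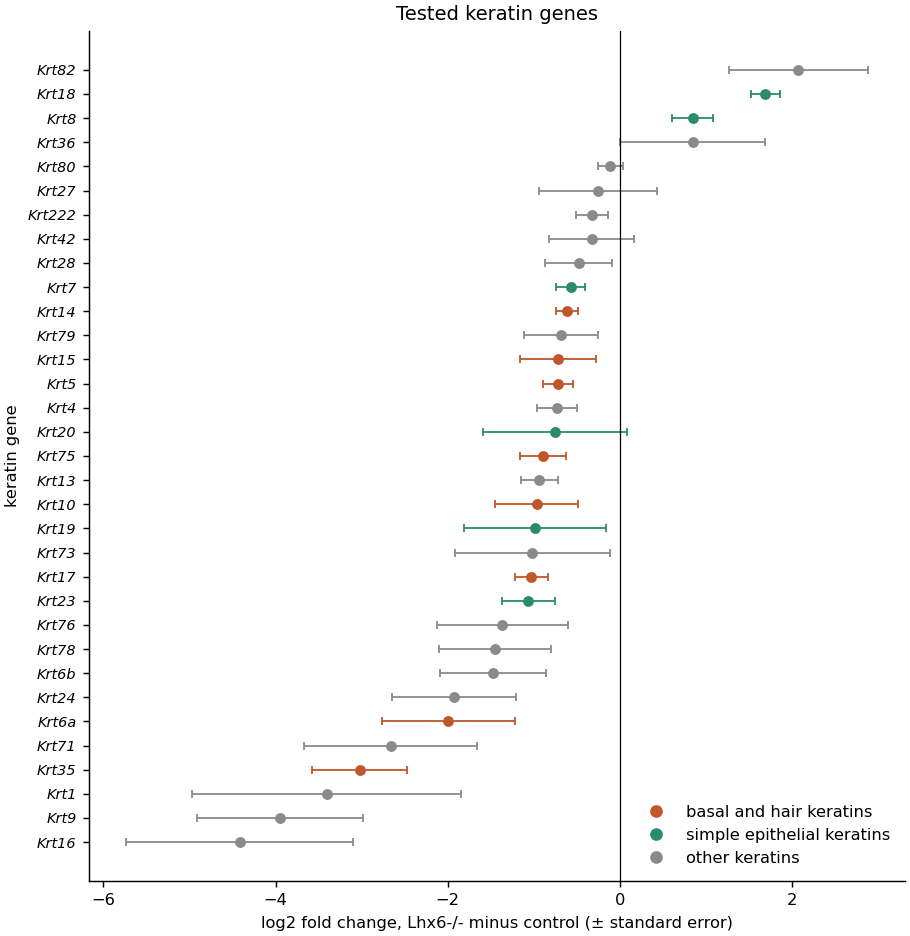
Log2 fold change (Lhx6-/- minus control, horizontal axis) with its standard error for the 33 keratins that could be tested, ordered by value; colours mark the 8 basal and hair keratins, the 6 simple epithelial keratins and the others. The 8 run from -3.02 for Krt35 to -0.62 for Krt14, and the 4 genes to the right of 0 are Krt82, Krt18, Krt8 and Krt36.

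Keratin filaments end on desmosomes, which join cells to each other, and on hemidesmosomes, which hold basal cells to the basement membrane. Of 20 genes of these anchors, 6 met the rule as lower and none as higher, against 1.71% and 1.58% of all tested genes. Their median log2 fold change was -0.28. The 6 were Dsp (-0.71, SE 0.16), the plakin that binds keratin in the desmosome, the desmosomal cadherins Dsg1a (-1.06), Dsg3 (-1.26), Dsc2 (-0.84) and Dsc3 (-0.80), and Ppl (-0.75), a second plakin. Dsp stood at 121, 194 and 144 CPM in control and at 94.6, 98.9 and 86.6 CPM in Lhx6-/- replicates, with no overlap. None of the 20 had an adjusted p under 0.05 from edgeR. The hemidesmosomal genes Itga6 (-0.0044), Itgb4 (-0.09), Dst (0.09), Plec (0.11) and Col17a1 (-0.22) did not meet the rule. Plec was the most abundant of the 20. The desmosomal genes Jup (-0.27), Pkp1 (-0.57), Pkp2 (-0.18), Pkp3 (-0.34), Dsg2 (-0.25), Dsc1 (-0.70), Perp (-0.28) and Evpl (-0.29) did not meet it either. Of the 20, 7 lay wholly lower in the Lhx6-/- libraries, against 7.68% of all tested genes, Itgb4 and Col17a1 among them. Without control replicate 2, 3 of the 20 met the rule, beside 714 of 20928 genes. With the epithelial covariate none did, beside 571 of 20114 genes.

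Among 14 transcription factors that act on basal or hair keratin genes, 2 met the rule, both lower, against 1.71% of all tested genes. These were Ovol1 (-1.44, SE 0.56) and Tfap2c (-1.06, SE 0.42), each below 2 CPM in every library. Trp63, the master factor of stratified epithelium that drives Krt5 and Krt14, stood at 45.4, 65.9 and 54.4 CPM in control and at 37.9, 43.4 and 44.2 CPM in Lhx6-/- replicates. The groups did not overlap, and the log2 fold change of -0.40 (SE 0.12, adjusted p = 0.289 in edgeR) was short of 1.5-fold. The hair keratin factors Hoxc13 (-0.57, SE 0.47) and Foxn1 (-0.02, SE 0.52) were at about 1 CPM or less. Dlx3, the most abundant of the 14, had a log2 fold change of 0.01 (SE 0.07).

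The genes most like Krt14 and Krt35 over the 6 libraries were found by Pearson's r of log2 CPM among 15121 genes with a mean of at least 1 CPM. For Krt14 they were Krt5 (0.998), Pfdn5 (0.996), Rpl35 (0.996), Plb1 (0.995) and Fabp5 (0.994). For Krt35 they were Poc1a (0.994), Asna1 (0.993), Pcmt1 (0.991), Atf4 (0.990) and Adgrg1 (0.987). These values are a description over 6 libraries that fall into 2 genotypes. The log2 fold changes of the 5 genes most like Krt35 lay between -0.42 and -0.13, far from that of Krt35 itself.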

How the data were processed

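The 8 keratins, the other gene lists and the tests were chosen with earlier results of these data known. RNA of 3 control and 3 Lhx6-/- libraries was read as single-end reads of 75 cycles. Per the labels and the methods of the study, the authors used STAR 2.6.1d to align trimmed reads to mm10 and Partek to quantify genes. The counter and its annotation were not given in the sources used here, and how reads shared by several keratins were divided was therefore not known. The authors deposited estimated counts per gene without normalization. A second deposited table holds their own comparison, with mean values, ratios, fold changes, p-values and false discovery rates. Its mean values, scores that the authors put on a scale of 1 + CPM, served only to check the order of gene names (largest relative deviation 1.14e-07), and its comparison columns were not used.

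Counts were rounded and tested with edgeR 4.0.16 in R 4.3.3 (TMM factors 0.977 to 1.04, edgeR's expression filter, robust quasi-likelihood test for genotype, two-sided), which kept 20114 of 23594 genes. Standard errors (SE) were taken from each log2 fold change and its F statistic. Nothing in the labels says which animals a library holds, so p-values measure the spread between these libraries only, with a biological coefficient of variation of 0.202. Genes named were the 8 keratins, Lhx6, other keratins that met the rule or averaged at least 10 CPM, list genes that met the rule or were the most abundant of their list, and the 5 genes most like Krt14 and Krt35. Krt1, Krt34, Krt36, Trp63, the hemidesmosomal genes, Hoxc13, Foxn1 and the other genes named beside these were chosen after their values were seen. There were 18 alternative fits (other scaling, DESeq2 1.42.0, limma 3.58.1, other filters, covariates, a replicate block, each library left out). Some items that these rules would name are not reported here. The code was tested on simulated counts. Exon lengths and coding sequences came from GENCODE vM21, with 1 transcript per gene, the one with the longest coding sequence, and positions are 1-based on mm10. Coding sequences were aligned with Biopython 1.88, and figures were drawn with matplotlib 3.10.9.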

Additional observations from a re-analysis of the deposited data

How the results depend on the processing

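Of 143 alternative values of single keratins, 142 were negative like the reported ones, and the exception was Krt15 with the epithelial covariate (0.21). The count of the 8 that met the rule as lower was 5, and became 8 without robust dispersion (1.9% of all tested genes were then lower), 8 with the Y-linked covariate (2.81%), 1 with the epithelial covariate (1.24%) and 3 to 7 when 1 library was left out (1.49% to 2.13%). The count with an adjusted p under 0.05 was 1, beside 0.0795% of all tested genes that were lower at that level. It became 3 in DESeq2 (0.513%), 0 in limma voom (0.0895%), 0 under a filter of 10 counts in each library (0.115%), where Krt35 was not tested, 0 with the epithelial covariate (0.00497%), 7 with the Y-linked covariate (1.09%) and 0 to 2 with 1 library left out (0.00475% to 0.261%). The count of other keratins that met the rule in either direction was 11, beside 660 of the 20114 genes tested. It became 7 under the filter of 10 counts (585 of 17458 genes) and 2 with the epithelial covariate (571 of 20114). With 1 library left out it was 5 to 11 (607 to 968 genes). The count of anchors was 6, and became 0 with the epithelial covariate and 11 with the Y-linked covariate (1241 of 20114 genes). With 1 library left out it was 3 to 7. The protocol speaks of 3 pairs of samples without naming them. Replicate numbers 1 to 3 are shared by the titles of both genotypes, while the count table and descriptions number the mutants 2, 3 and 4, so the titles' numbers need not mark the pairs. Deviations of same-numbered libraries correlated at 0.03, -0.03 and -0.03 and 1 of 6 libraries correlated best with their own number. With a block on the titles' replicate numbers 7 of the 8 met the rule (1.65% of all tested genes) and 2 had an adjusted p under 0.05 (0.254%). The cause of these changes was not tested. For Krt35 counting error also limits precision, with 5 to 11 counts per Lhx6-/- library.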

Other observations

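Genes of cornification and of the hair shaft were set beside the keratins. Of 14 such genes, 12 were in the table and could be tested. They summed to 101, 157 and 236 CPM in control and to 90.8, 94.9 and 101.9 CPM in Lhx6-/- replicates, so the sums overlapped narrowly. Of the 12, 11 had a negative log2 fold change, with a median of -0.86. The rule was met by 1 of them, as lower, against 1.71% of all tested genes. That gene was Sbsn, which encodes suprabasin of the upper epidermal layers, at 17.3, 21.3 and 24.3 CPM in control and at 14.3, 12.0 and 13.1 CPM in Lhx6-/- replicates (log2 fold change -0.68 ± 0.13 SE, with an adjusted p of 0.0501 in edgeR). The 3 Lhx6-/- libraries lay below the 3 control libraries. Lor, the main protein of the cornified envelope, stood at 5.03, 18.5 and 55.8 CPM in control and at 11.4, 5.29 and 3.95 CPM in Lhx6-/- replicates, and Sprr1a, a small envelope protein, at 2.35, 8.92 and 45.3 against 3.99, 2.75 and 6.84 CPM. Both were highest in control replicate 3, not in control replicate 2, which was the highest library for the 8 keratins. Tchh, trichohyalin of the inner root sheath and of the tongue, stood at 36.9, 28.2 and 32.5 against 22.9, 28.4 and 23.5 CPM (log2 fold change -0.38 ± 0.11 SE, with an adjusted p of 0.263 in edgeR).

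Of all tested genes, 7.86% lay wholly above the control libraries in the Lhx6-/- libraries. Outside the epithelium, 7 of 10 genes of dental mesenchyme did so, and none met the rule. Col1a1, the most abundant of them, had a log2 fold change of 0.09 (standard error 0.11). Of 4 odontoblast genes 2 lay wholly above, among them Dspp, at 4731, 4384 and 4283 CPM in control and at 5367, 5457 and 5992 CPM in Lhx6-/- replicates (log2 fold change 0.33, standard error 0.09). Of 5 endothelial genes 3 lay wholly above, with Cdh5 (0.37) as the most abundant, and none met the rule. Of 5 blood genes 3 met the rule as lower, against 1.71% of all tested genes, namely Hba-a1 (-0.82), Hbb-bs (-0.73) and Alas2 (-0.73). None of the immune, muscle or nerve and glia genes tested met the rule, with Csf1r (0.02) and Acta1 (0.39) as the most abundant of the immune and muscle lists. Amtn, amelotin of maturing enamel, had an adjusted p of 0.0210 from edgeR at less than 1.5-fold (log2 fold change -0.54, standard error 0.09). Of 4 Y-linked genes 1, Kdm5d (1.48), met the rule as higher, against 1.58% of all tested genes, and Eif2s3y (1.25) was the most abundant.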
